A study of Mus musculus with 4 samples.

Results

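In mouse liver, 545 of the 11602 H3K27ac regions of sham-operated animals were at least 25000 bp wide, and these broad acetylated domains are described here with their genes and with what overlaps them 12 h after partial hepatectomy (PHx). The members were chosen by their width in the sham list alone, which was taken from the deposited start and end of each region. They made up 4.70% of the sham regions and, with 19.4 Mb, 16.0% of the sham length. Acetylation was mapped by CUT&Tag, in which an antibody directs a transposase to the histone mark and the enzyme tags the DNA beside it. The PHx group was liver of C57/BL6J mice taken 12 h after surgical removal of 70% of the organ, with 2 libraries. The sham group was liver of sham-operated mice of the same strain, also with 2 libraries. No genetic change was named for either group, the labels give neither an age nor the animals behind each library, and they give no time for the sham libraries, while the series' design text speaks of 0 h. Hours since surgery and hour of the day therefore cannot be told apart from hepatectomy.

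Acetylation of lysine 27 on histone H3 marks active promoters and enhancers. Most acetylated regions are short, but clusters of enhancers and the bodies of highly used genes can merge into long stretches, and such stretches are known for lying over genes that define a cell type. In liver these include genes for the transcription factors, plasma proteins and metabolic enzymes of the hepatocyte. Partial hepatectomy makes the remaining, otherwise resting hepatocytes enter the cell cycle while they go on with these functions.

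The regions come as 1 merged list per group, on the build GRCm39, with no signal, score or read count. Every value below is therefore a position, a width or an overlap, with no replicate error, no known depth and no test. The PHx list held 10170 regions over 197 Mb, and the sham list 11602 regions over 122 Mb. Fewer cells with a mark and less of the mark per cell cannot be told apart in whole tissue. Of the 6 hepatocyte markers looked up, 3 (Apoa1, Hnf4a and Ttr) had a start inside a broad domain, and Alb, Cyp2e1 and Cps1 had not. Cyp2e1 had a region of 23620 bp in PHx liver and 12264 bp in sham liver. Cps1 had 29267 bp in PHx liver and no sham region at its start. The albumin gene Alb had a region of 18025 bp in PHx liver and 10096 bp in sham liver, and the neuronal marker Snap25 had no region at its start in either list.

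The starts of 4 genes whose domains recur below are shown first, so that a promoter that lies under broad acetylation can be read. Each is the stretch of 250 bases before the gene's RefSeq start, 5′ to 3′ on the gene's strand, in the build GRCm38.p6 and not in the build of the regions. Ppara lies at chr15:85735526-85735775 (+), Foxo3 at chr10:42276696-42276945 (-), Apoa1 at chr9:46228380-46228629 (+) and Cebpa at chr7:35119043-35119292 (+). Capitals mark matches, on either strand, to GGGCGG (the GC box read by SP factors), TGTTTGC (a FOXA motif) or TATAAA (the TATA box).
Ppara: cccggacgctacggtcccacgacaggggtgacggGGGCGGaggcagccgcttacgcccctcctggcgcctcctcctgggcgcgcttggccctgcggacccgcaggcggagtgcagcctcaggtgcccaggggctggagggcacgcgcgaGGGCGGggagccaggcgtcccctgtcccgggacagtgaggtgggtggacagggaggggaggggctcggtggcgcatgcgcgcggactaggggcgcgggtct
Foxo3: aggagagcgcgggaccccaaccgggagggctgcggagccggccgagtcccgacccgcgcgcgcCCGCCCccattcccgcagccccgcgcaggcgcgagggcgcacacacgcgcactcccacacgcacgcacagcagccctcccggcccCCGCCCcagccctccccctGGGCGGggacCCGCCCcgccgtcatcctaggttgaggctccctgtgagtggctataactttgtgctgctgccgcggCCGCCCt
Apoa1: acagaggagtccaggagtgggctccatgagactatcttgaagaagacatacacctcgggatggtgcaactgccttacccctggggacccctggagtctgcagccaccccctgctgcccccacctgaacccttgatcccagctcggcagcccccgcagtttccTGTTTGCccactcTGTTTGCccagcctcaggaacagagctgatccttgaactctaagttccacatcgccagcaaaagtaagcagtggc
Cebpa: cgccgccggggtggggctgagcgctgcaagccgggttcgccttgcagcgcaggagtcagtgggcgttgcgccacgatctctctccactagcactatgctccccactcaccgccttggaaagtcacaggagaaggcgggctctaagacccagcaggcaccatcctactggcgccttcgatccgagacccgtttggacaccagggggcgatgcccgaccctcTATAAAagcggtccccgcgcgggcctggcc
The Ppara and Foxo3 stretches were both 76.4% G or C, with 27 and 31 CpG dinucleotides and with 2 and 5 GC boxes. The Apoa1 stretch was 58.0% G or C with 4 CpG, and it held the FOXA motif 75 and 88 bases before the start. The Cebpa stretch was 66.4% G or C with 22 CpG and a TATA box 30 bases before the start. A match is a run of letters and no evidence of binding, and a RefSeq start need not be the start listed with the regions.

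Most such motifs stood at similar shares at the starts of genes inside broad domains and of other listed coding genes, whose starts need not be acetylated. RefSeq windows of 300 bases covered 250 before the start and 50 after it. They were found for 269 of the 352 protein-coding genes with a listed start inside a domain, 392 windows in all. Their median G and C content was 62.3%, against 61.0% over 7103 windows of the other listed coding genes and 56.3% over all 21262 coding windows. The GC box GGGCGG stood in 63.5% of the windows of genes inside domains, 60.8% of those of other listed genes and 46.2% of all coding windows. The TATA box showed the reverse order, with 5.87%, 8.0% and 12.6% of the same windows. CCAAT, the NF-Y box, was in 39.5%, 35.8% and 38.2%, and the E-box CACGTG in 9.95%, 9.46% and 7.84%. The FOXA motif was in 5.87%, 4.03% and 4.58% as TGTTTGC and in 2.04%, 2.42% and 3.01% as TGTTTAC. The HNF4 motif CAAAGTCCA was in 0.255% (1 window), 0.493% and 0.452%, and the CRE motif TGACGTCA in 1.79%, 2.69% and 2.23%. The relaxed C/EBP motif TTNNGCAA was in 10.5%, 8.52% and 10.2%, and the AP-1 motif TGANTCA in 6.12%, 5.72% and 6.99%. All motifs were read on both strands and windows of neighbouring starts of 1 gene can overlap.

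The domains ranged in width between 25001 and 123534 bp, with a median of 31988 bp and quartiles of 27995 and 38162 bp. At the width minimum, the nearest members were at Iqcd (25001 bp), Fahd1 (25037 bp) and Mapk14 (25074 bp), and the nearest regions left out were at Clec16a (24923 bp), Fxyd1 (24903 bp) and Gm52706 (24899 bp). All 6 were covered over their whole length by 1 PHx region. By the authors' annotation 479 domains (87.9%) were promoter regions, against 67.8% of all sham regions and 72.4% of the 3679 sham regions of 10000 to under 25000 bp. The others were 23 exonic, 18 intronic, 12 in a 3′ UTR, 7 in a 5′ UTR, 5 distal intergenic and 1 downstream of a gene. A wide region more often reaches a start by its length alone. The share of domains on a chromosome lay between 2.64% of the sham regions on chromosome 17 and 6.51% on chromosome 8, and none of the 30 sham regions on the X chromosome was this wide.

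Many domains reached the list as several library peaks that merging had joined. In 108 domains (19.8%) each sham library gave 1 peak, against 86.5% of all sham regions and 70.7% of those of 10000 to under 25000 bp. Library 1 alone had several peaks in 169 domains, library 2 alone in 102 and both in 166. The width of a domain is thus the union of what the libraries cover, and 203 domains had equal peak numbers in the 2 libraries.

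A listed gene start lay inside 474 domains (87.0%), and a protein-coding one inside 345 (63.3%). In all, 524 genes had a start inside, 352 of them protein-coding, which is 4.96% of the 7091 coding genes with a start in either list. Seen from the assigned gene's start, the domains ran a median of 13502 bp upstream and 20605 bp downstream, and the downstream arm was the longer in 57.8% of 474. The whole assigned gene lay inside 221 domains (40.6%), against 13.0% of all sham regions and 20.7% of those of 10000 to under 25000 bp, a share that grows with width by construction. Starts are listed only for genes assigned to a region, so starts of other genes inside a domain are not counted. Srebf1 and Por, for example, had no listed start. The counts of coding starts given here are therefore minimum counts. Several listed coding starts shared 12 domains. Among the widest of these, one held Dnajb3, a co-chaperone gene, with Mroh2a (53864 bp in PHx liver and 61075 bp in sham liver). Another held the apoptosis gene Bad with Catsperz (44370 bp in sham liver). It met 2 PHx regions, of 27258 bp at Catsperz and of 68242 bp at Bad, the latter also over the broad domain at Dnajc4. A further domain paired Agpat2, a phosphatidic acid synthesis gene, with the endothelial gene Egfl7 (49368 bp in PHx liver and 41817 bp in sham liver). The domain of Cyb5r3 with Poldip3 (36152 bp in sham liver) met PHx regions of 20424 bp at Cyb5r3 and 6108 bp at Poldip3.

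Many domains were assigned to a noncoding gene. The assigned gene was protein-coding in 358 domains (65.7%, against 69.1% of all sham regions), a long noncoding RNA in 146, a pseudogene in 11 and a microRNA in 9. Of the 172 noncoding assigned genes with a place in the RefSeq gene table, 112 overlapped a coding gene there. The widest domain, named for Mir3075, is such a case, since that microRNA overlaps Zmiz1, which encodes a transcriptional coregulator. Likewise Gm39664 overlaps Tns1 (tensin), Gm34106 Zmynd10, Gm39269 Zfpm1 (the GATA cofactor FOG1), Gm46153 Rora, Mir6921 Srebf1 (the lipid synthesis regulator SREBP1) and G430095P16Rik Nfix. The Mir6921 domain at Srebf1 measured 91198 bp in PHx liver and 51594 bp in sham liver.

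The 10 widest domains were almost entirely acetylated after PHx as well, and in 5 of them the ratio of PHx to sham width lay between 0.994 and 1.02. At Mir3075 and Zmiz1 (chr14:25445427-25568960) the PHx region measured 126273 bp and the sham domain 123534 bp. Rxra, the shared partner of the lipid-sensing nuclear receptors, had 117845 bp in PHx liver and 118578 bp in sham liver (chr2:27552725-27671302, promoter), with 98.2% of the domain covered. Gm39664, at Tns1, measured 102739 bp in PHx liver and 101781 bp in sham liver. Gna12, a G protein alpha subunit gene, and Gm32280 were as steady, with 74859 bp in PHx liver against 73493 bp in sham liver and 69079 bp in PHx liver against 68814 bp in sham liver. The remaining 5 were wider after PHx. At 4930544F09Rik, whose domain holds the start of Mtss1, an actin and membrane regulator, the region was 128496 bp in PHx liver and 120721 bp in sham liver. Shb, an adaptor of receptor tyrosine kinases, had 135841 bp in PHx liver and 93825 bp in sham liver. Lrig1, which encodes an inhibitor of EGF receptor signalling, had 113959 bp in PHx liver and 76166 bp in sham liver. Gm34106 and Gm13835 were over 2-fold wider, with 199126 bp in PHx liver against 96079 bp in sham liver and 161938 bp in PHx liver against 74377 bp in sham liver. In each of these last 4 the PHx region also ran over further sham regions.

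**Figure D1:**
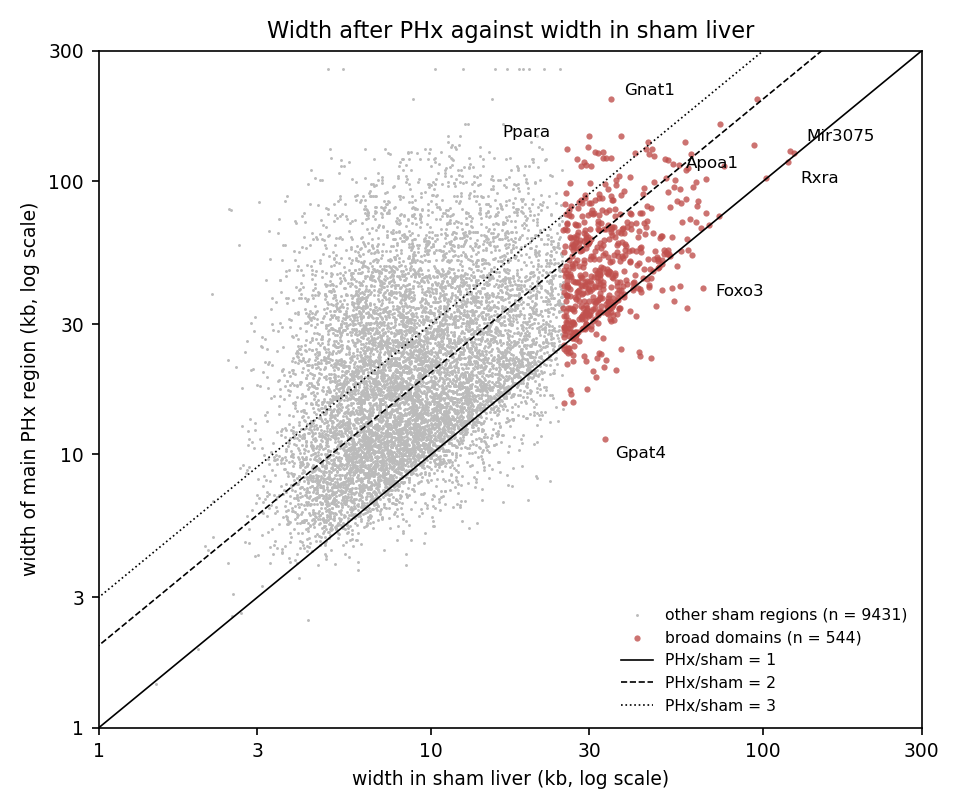
Each point is a sham region with an overlap; the x axis is its width in sham liver and the y axis the width of the PHx region that shares most bases with it, both in kb on log scales. The 544 overlapped broad domains (red) start at the width minimum by choice, most lie above the line of equal width, and Rxra and Mir3075 lie on it while Foxo3 and Gpat4 lie below it.

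Broad domains of sham liver were found again in PHx liver with 1 exception. A PHx region overlapped 544 of 545 domains, 99.8% (95% Clopper-Pearson interval 99 to 100), against 86.0% of all sham regions and 95.3% of those of 10000 to under 25000 bp. PHx regions covered 96.8% of the domains' length, against 87.3% of the length of all sham regions. At least 90% of the length was covered in 476 domains (87.3%, interval 84.3 to 90), against 75.3% of all sham regions. The whole length was covered in 352 domains (64.6%), against 61.4% of all sham regions, so on that count the domains stood near the background. Intervals cover counting error only, since regions of 1 list are not replicates, and longer regions meet another list more often by length.

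Read the other way, the asymmetry of the lists shows. The 545 widest PHx regions, chosen by PHx width in the same number, were at least 46460 bp wide. Sham regions covered 67.1% of their length, against 53.9% of the length of all PHx regions, and 98.7% of them were overlapped. Several sham regions met 82.2% of these widest PHx regions, whereas several PHx regions met 6.24% of the broad sham domains. The median sham region sharing most bases with such a PHx region had 0.392 of its width. Of the broad sham domains, 282 (51.7%) had their main PHx region, the one sharing most bases with the domain, among these 545, and 514 of 544 (94.5%) had one of at least 25000 bp.

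The main PHx region was usually wider than the sham domain, but less so than elsewhere in the list. Its median width was 47788 bp (quartiles 35157 and 66761 bp), and the median ratio of PHx to sham width was 1.38 (quartiles 1.06 and 1.93), against 1.96 over all overlapped sham regions and 1.68 over those of 10000 to under 25000 bp. The main PHx region was wider at 466 domains (85.7%) and narrower at 78 (14.3%), against 7.39% narrower of all overlapped sham regions. It was over 2-fold wider at 128 domains (23.5%), against 48.9%. Where several PHx regions met a domain only the main region counts, so a split domain can count as narrower. With the widths of all overlapping PHx regions summed, the median ratio was 1.42. Since the domains were selected on the sham width that is the denominator of this ratio, a low ratio is in part a product of the choice, and these values are given as a description. Within the domains the median ratio was 1.47 at 25000 to under 30000 bp (215 domains), 1.40 at 30000 to under 40000 bp (211), 1.18 at 40000 to under 60000 bp (97) and 1.17 at 60000 bp and over (22).

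The ratio of widths was larger with joining than without. A joined PHx region counts with its whole width, further sham regions included, so this difference is in part built into the measure. The main PHx region also ran over further sham regions at 282 domains (51.8%), against 37.5% of all overlapped sham regions, and the median ratio there was 1.88. At the 235 domains (43.1%) where domain and PHx region met only each other, the median ratio was 1.08, against 1.49 over all such sham pairs. The 523 main PHx regions spanned 28.0 Mb, of which 66.2% lay over broad domains, 15.5% over other sham regions and 18.3% over none. Over all PHx regions, 46.1% of the length lay over no sham region. The PHx region passed the domain at both ends in 349 cases (64.2%), at 1 end in 174 (32.0%) and at neither in 21 (3.86%). The median gain was 11886 bp at whichever end gained more and 512 bp at the other, an order fixed by the sorting of the ends. Relative to the gene, the downstream end gained more in 250 of 473 (52.9%).

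**Figure D2:**
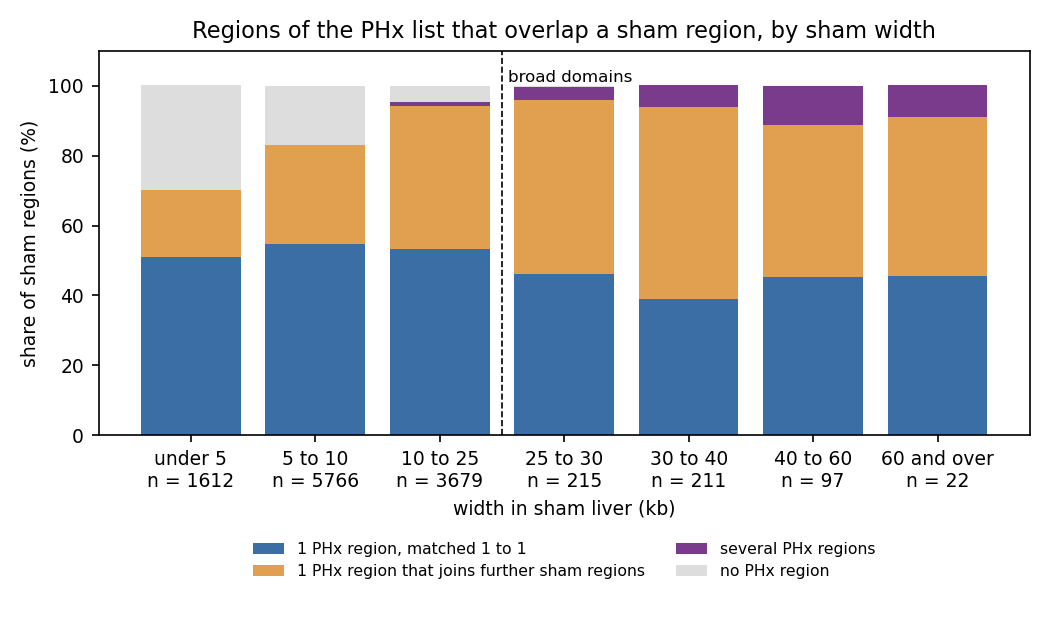
Stacked bars give, for sham regions binned by width (x axis, kb, with n), the percent matched 1 to 1 with a PHx region, overlapped by 1 PHx region that joins further sham regions, met by several PHx regions, or met by none. The share with no PHx region is 29.8% under 5 kb and 4.70% at 10 to 25 kb, and the share met by several PHx regions is 11.3% at 40 to 60 kb.

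In 21 places 1 PHx region ran over 2 broad domains, so that 42 domains ended in shared regions. The widest such region, 199126 bp, took in Gm34106 and Gnat1 and 4 sham regions in all, with 44053 bp that no sham region covered. At Hnf4a (chr2:163372183-163407528), the master regulator gene of the hepatocyte, the domain and its neighbour at Ttpal lay in 1 PHx region of 85422 bp, 74.5% of which was broad in sham liver. Ppara, the receptor that switches on fatty acid oxidation, had a domain of 25724 bp (chr15:85611719-85637442) next to that of Lncppara, and both lay in 1 PHx region of 130902 bp over 5 sham regions. At Nfix and G430095P16Rik the shared region measured 125666 bp, with 84.0% of it already broad in sham liver. The 2 domains of Nr5a2 lay in 1 PHx region of 66649 bp, with 93.0% of it already broad.

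The largest ratios of PHx to sham width all stood at such places or where many sham regions were joined. Gnat1, the rod transducin gene, had 199126 bp in PHx liver and 34885 bp in sham liver, a ratio of 5.71. Ppara followed with 5.09 and one of 2 domains at Cmip with 4.88 (145919 bp in PHx liver and 29914 bp in sham liver). The exonic domain at 2310067E19Rik, which overlaps Nfib, had 133564 bp in PHx liver and 29711 bp in sham liver. The intronic domain at Ski, which encodes a corepressor of TGF-beta signalling, had 120454 bp in PHx liver and 27558 bp in sham liver. These 5 PHx regions each ran over 4 to 6 sham regions, so the ratio compares a joined region with 1 of its parts.

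Several PHx regions met 34 domains (6.24%, interval 4.36 to 8.61), against 0.733% of all sham regions and 1.20% of those of 10000 to under 25000 bp. The chance to meet several regions grows with width, and the share was 3.72% of domains of 25000 to under 30000 bp and 11.3% of those of 40000 to under 60000 bp. The gaps between the PHx regions were short, between 341 and 9909 bp with a median of 3573 bp. Peak numbers run in genomic order within each library, and a number missing between neighbouring regions was read as a peak that entered no listed region, which the files do not state. In all 34 gaps no number of either PHx library was missing. At Foxo3 (chr10:42090806-42156552), a forkhead factor held back by insulin signalling, PHx regions of 40714 bp at Foxo3 and 48913 bp at Gm38485 covered 92.5% of a sham domain of 65747 bp. At Dgat2, which makes triglyceride, 84587 bp and 57375 bp in PHx liver stood over a sham domain of 63756 bp. Prkce, a protein kinase C gene, had 38533 bp and 34345 bp in PHx liver over 58770 bp in sham liver, and the tetraspanin gene Cd82 had 41389 bp and 13300 bp over 56234 bp. The domain named for Mir7087, which overlaps Sidt2, and with the start of the protease gene Pcsk7 inside, was the only one met by 3 PHx regions, of 22505, 14162 and 25617 bp, over 45898 bp in sham liver.

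**Figure D3:**
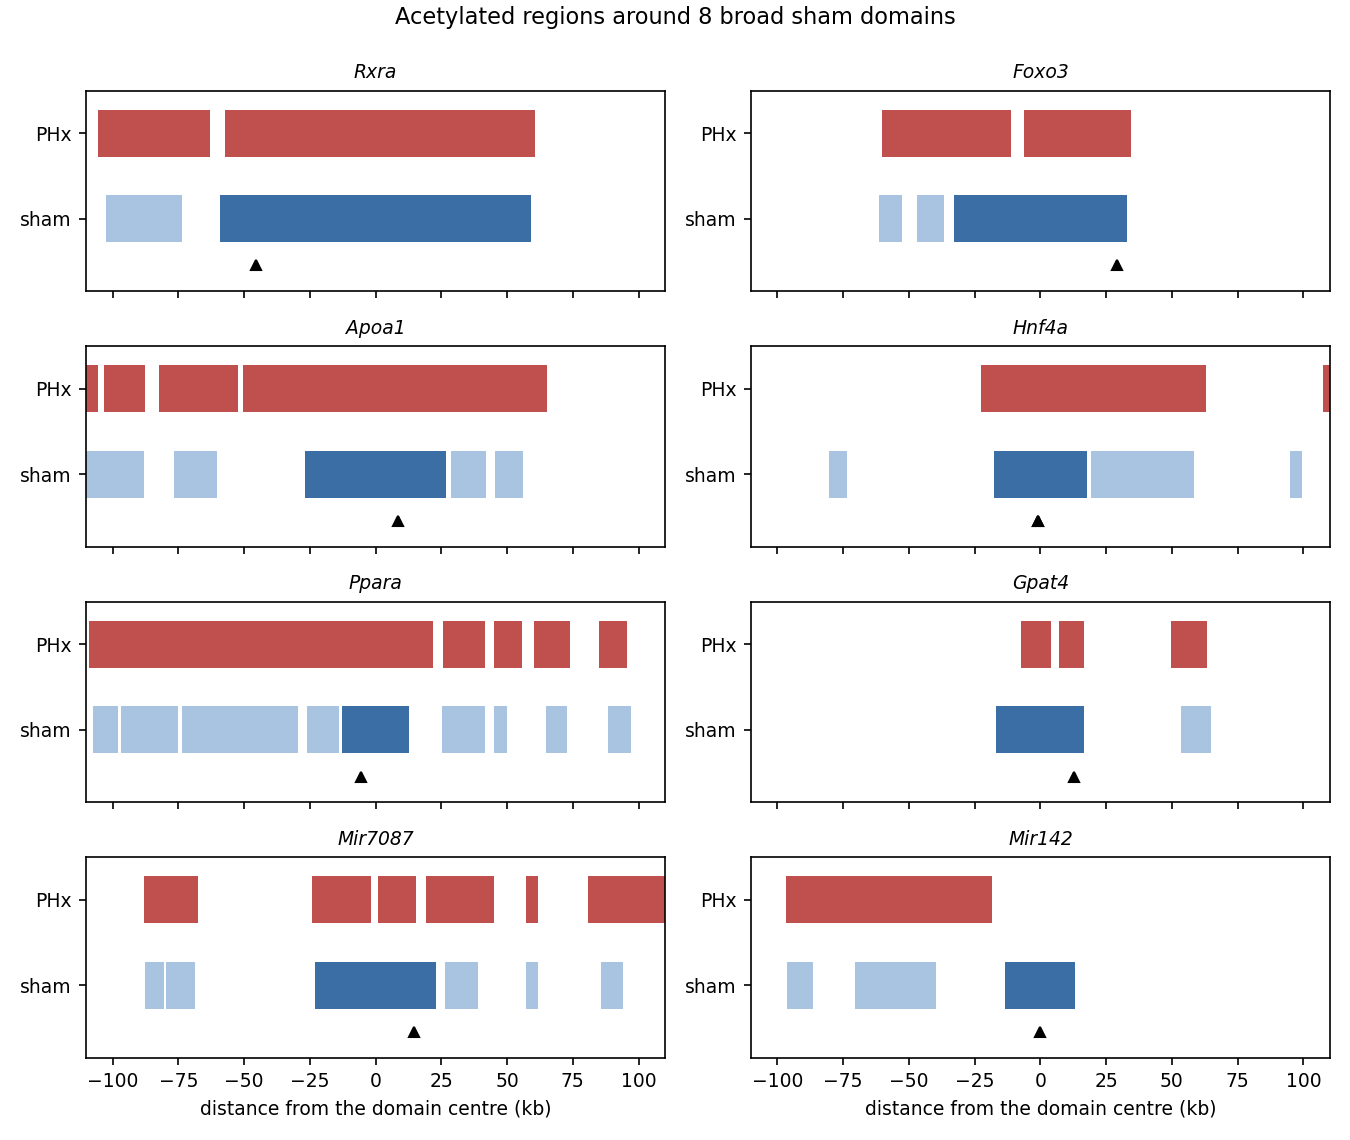
Regions of PHx liver (red, upper row) and sham liver (lower row, the broad domain dark and other sham regions light) around 8 domains, by distance in kb from the domain's centre, drawn to 110 kb on either side; triangles mark listed gene starts. The Rxra domain has 1 PHx region of nearly the same ends, Hnf4a, Apoa1 and Ppara lie in wider joined PHx regions, Foxo3, Gpat4 and Mir7087 are met by several, and Mir142 has none.

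A narrower main PHx region was found at 78 domains, and the 5 smallest ratios were those of domains met by several PHx regions. Gpat4, which encodes a glycerol-3-phosphate acyltransferase of the endoplasmic reticulum, had 11416 and 9580 bp in PHx liver and 33445 bp in sham liver (chr8:23668955-23702399), a ratio of 0.341 for the main region. Mir7087 followed at 0.490. Cnst, which encodes the connexin-binding protein consortin, had 22880 and 15345 bp in PHx liver and 42613 bp in sham liver. Gm36496 had a main PHx region of 23693 bp and 42291 bp in sham liver. A second PHx region there, of 44872 bp at Gm17746, shared 13644 bp with the domain. Cyb5r3, a cytochrome b5 reductase gene, had 20424 and 6108 bp in PHx liver and 36152 bp in sham liver, with 73.4% covered.

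Loss of covered length was small in sum but spread over many domains. Of the 545 domains, 352 were covered over their whole length and 476 for at least 90% of it. In all, 629 kb of the 19.4 Mb lay outside PHx regions, 143 kb of it in the gaps just described. After Mir142, the least covered domain was at Stk24, a Ste20-family kinase gene, with 58.3% covered (39194 bp in PHx liver and 42800 bp in sham liver). Nodal, a TGF-beta family ligand gene, had 62.7% covered (15446 bp in PHx liver and 25101 bp in sham liver), and Gpat4 had 62.8%. Gm52148, which overlaps the endothelial gene Stab1, had 63.0% covered (20873 bp in PHx liver and 33124 bp in sham liver). Serpina11, a serpin gene, had 63.0% covered as well (16660 bp in PHx liver and 26435 bp in sham liver).

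Mir142 had the only broad domain with no PHx region. Its gene gives rise to miR-142, a microRNA known for its expression in blood and immune cells. The sham domain (chr11:87634397-87660984, promoter, 26588 bp) was 1 peak in each sham library. In the PHx list the nearest region to the left, at 1110028F11Rik, ended 5111 bp away, and the nearest to the right, at Dynll2, began 210034 bp away. In that stretch of 241733 bp each PHx library had 1 peak number that no listed region used, which, on the same reading, would be a peak at an unknown place in the stretch. Of the other immune cell markers, 0 of the 4 Kupffer cell and macrophage markers with a listed start had it in a broad domain. All 4 had a PHx region at their start and 2 a sham region, and no listed start was found for the neutrophil and monocyte or the lymphocyte markers. C1qa, a macrophage gene, had a region of 22536 bp in PHx liver and 17253 bp in sham liver, and Cd68 had 18524 bp in PHx liver and 10147 bp in sham liver. Csf1r and Cd14 had regions of 30957 and 23110 bp in PHx liver and none in sham liver. The part of cell numbers in the Mir142 result was not tested.

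Including Mir142, 10 microRNA genes had a listed start inside a broad domain, and 9 of them had mature sequences in the RefSeq table. These gave 17 mature microRNAs with 17 distinct seeds, so none shares a seed with another. The sequences are shown for the 3 genes that stand out above, with the widest domain, the most PHx regions and no PHx region, and for miR-101b; capitals mark the seed, bases 2 to 8.
mmu-miR-3075-3p: aUCCUUGGccuuccuaggugu
mmu-miR-7087-5p: aGGCAGGUguggagcuggucu
mmu-miR-7087-3p: uGCUGGCUcucuccccugccag
mmu-miR-142a-5p: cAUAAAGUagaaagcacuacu
mmu-miR-142a-3p: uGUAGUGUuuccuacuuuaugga
mmu-miR-101b-3p: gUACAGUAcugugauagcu
The Mir101b domain measured 53168 bp in PHx liver and 37677 bp in sham liver, and the Mir6958 domain 45473 bp in PHx liver and 35699 bp in sham liver. Mir7011 was nearly level at 27607 bp in PHx liver and 27334 bp in sham liver. Mir1942 was narrower, with 31352 bp in PHx liver and 34592 bp in sham liver, and Mir365-2 lay in the domain of Gm11205, met by PHx regions of 33365 and 7506 bp over 39738 bp in sham liver. A region over a microRNA gene can belong to its host or neighbour, and these data give no level of any microRNA.

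The lists of liver genes fell unevenly on the domains, with high shares for hepatocyte regulators and most lists of metabolism, beside 4.96% over all listed coding genes. The lists were drawn up with earlier results on these data known, so the shares are descriptions. A start inside a domain was found for 8 of 24 listed genes of amino acid and urea metabolism and 8 of 24 of glucose metabolism (33.3% each), 6 of 19 hepatocyte transcription factors (31.6%), 5 of 19 bile acid and transport genes (26.3%), 5 of 22 lipid synthesis genes (22.7%), 3 of 14 fatty acid oxidation genes (21.4%), 7 of 37 plasma protein genes (18.9%) and 4 of 23 nuclear receptor genes (17.4%). Near the background stood the cell cycle genes with 1 of 18 (5.56%), the interleukin-6 and acute phase genes with 1 of 16 (6.25%), the growth factor genes with 2 of 26 (7.69%) and xenobiotic metabolism with 1 of 12 (8.33%). Genes of any list without a listed start do not count, and only 12 of 26 xenobiotic genes had one. Por had none, but Gm16061, which overlaps it, had a domain with 81104 bp in PHx liver and 44723 bp in sham liver. Immediate early genes had 2 of 19 (10.5%), housekeeping genes 1 of 9 (11.1%) and clock genes 0 of 10. Counts this small move by several percentage points with 1 gene. In the ratios below, as above, a PHx region that runs over further sham regions counts with its whole width. Over all overlapped domains the PHx region was wider in 85.7% and joined further sham regions in 51.8%, and with so few genes per list the counts of wider members below stand near that share.

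**Figure D4:**
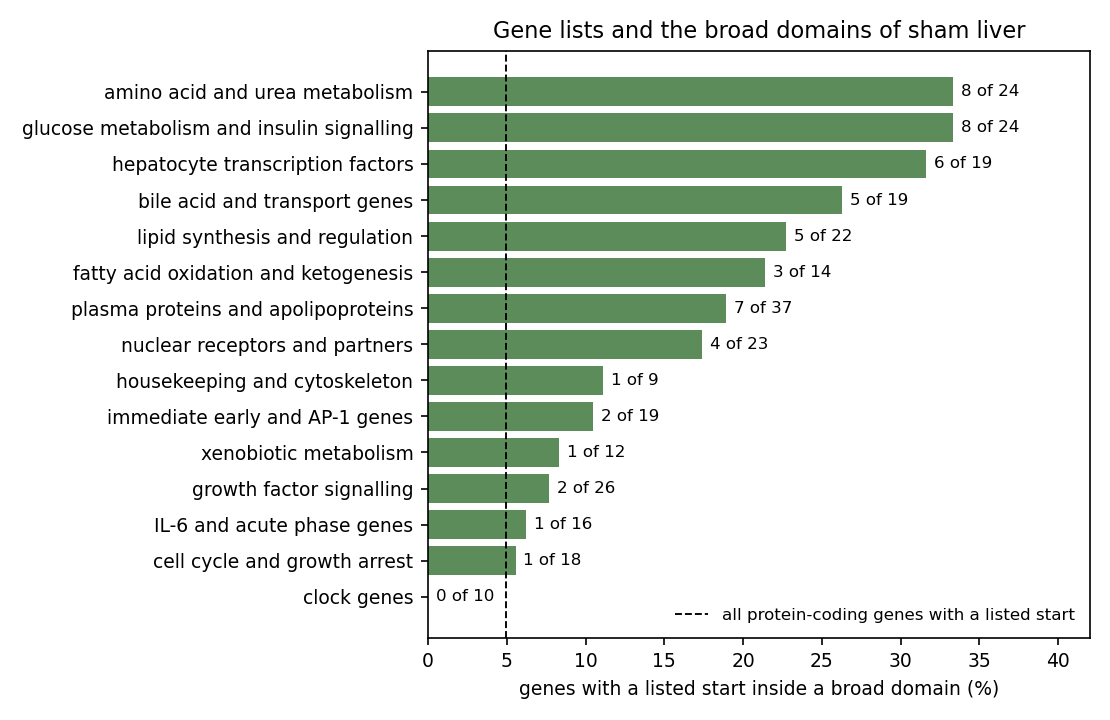
Bars give the percent of each list's genes with a listed start that lie inside a broad sham domain (x axis), with the counts beside them; the dashed line is the 4.96% of all listed protein-coding genes. The amino acid and glucose lists are at 33.3% and the hepatocyte transcription factors at 31.6%. Xenobiotic metabolism is at 8.33%, the cell cycle list at 5.56% and the clock list at 0.

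Among hepatocyte transcription factors, all 6 with a domain had a wider PHx region, with a median ratio of 1.98, and in 5 it ran over further sham regions (85.7% wider and 51.8% joined over all domains). Cebpa, which drives hepatocyte maturation and restrains division, had 63908 bp in PHx liver and 44114 bp in sham liver (chr7:34814671-34858784). Foxa3, a pioneer factor gene, had 41669 bp in PHx liver and 28219 bp in sham liver. Nfia, a nuclear factor I gene, had 45823 bp in PHx liver and 26270 bp in sham liver. Hnf4a, Nfix and Nr5a2, a bile acid and lipid regulator, had the joined regions given above, and the exception to joining was Foxa3. Just short of the width minimum stood Prox1 (25971 bp in PHx liver and 24363 bp in sham liver) and the listed start of Nfib (22370 bp in PHx liver and 23701 bp in sham liver). A separate domain at 2310067E19Rik, a noncoding gene that overlaps Nfib, had 133564 bp in PHx liver and 29711 bp in sham liver. By the authors' own annotation, 27 domains at 24 genes carried a transcription factor family (4.95%), against 5.13% of all sham regions. Of these, 23 had a wider PHx region, with a median ratio of 1.48, close to the 1.38 of all domains.

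Nuclear receptors and partners held both level and strongly widened domains, with a median ratio of 1.08 over 4 genes. Rora, a receptor that feeds into the clock, had 61203 bp in PHx liver and 59112 bp in sham liver. Like Rxra it was nearly level, and Ppara stood apart with its joined region. No clock gene had a listed start inside a domain, and the widest sham region at such a start was that of Per1, with 45135 bp in PHx liver and 20303 bp in sham liver. Per2 had no listed start, but the noncoding gene Gm35591, which overlaps it, had a domain with 59182 bp in PHx liver and 36490 bp in sham liver.

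Plasma protein genes with a domain all had a wider PHx region, 7 of 7 beside 85.7% of all domains, with a median ratio of 1.46, and 5 of the 7 were joined with further sham regions, all but Ahsg and Hgfac. Apoa1, the main protein of high-density lipoprotein, had 115827 bp in PHx liver and 53592 bp in sham liver (chr9:46104754-46158345, promoter), over 3 sham regions. Apoc1, another apolipoprotein gene, had 47951 bp in PHx liver and 32857 bp in sham liver. Ttr, which carries thyroid hormone and retinol-binding protein, had 41219 bp in PHx liver and 31068 bp in sham liver. The smallest gain was at Ahsg (fetuin-A) with 33617 bp in PHx liver and 30403 bp in sham liver. The coagulation genes F2 (prothrombin) and F10 had 42052 bp in PHx liver against 29188 bp in sham liver and 44455 bp in PHx liver against 26310 bp in sham liver. Hgfac, the activator of hepatocyte growth factor, had 45373 bp in PHx liver and 28073 bp in sham liver.

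Bile acid and transport genes were wider in 5 of 5, beside 85.7% of all domains, with a median ratio of 1.48, and in all 5 the PHx region ran over at least 1 further sham region. Slc27a5, the bile acid CoA ligase, had 50895 bp in PHx liver and 39768 bp in sham liver. Scarb1, the receptor for high-density lipoprotein, had 55321 bp in PHx liver and 39520 bp in sham liver. The canalicular exporter gene Abcc2 had 44841 bp in PHx liver and 30234 bp in sham liver, and the basolateral exporter gene Abcc3 61049 bp in PHx liver and 28017 bp in sham liver, the larger gain. Abca1, the cholesterol exporter, had 59998 bp in PHx liver and 29868 bp in sham liver.

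Lipid synthesis genes were wider in 4 of 5, against 85.7% of all domains, with a median ratio of 1.45 and 3 of them joined (Elovl5, Gpam and Dgat2). Elovl5, a fatty acid elongase gene, had 64933 bp in PHx liver and 36612 bp in sham liver. Gpam, the mitochondrial counterpart of Gpat4, had 75423 bp in PHx liver and 32104 bp in sham liver, the opposite direction to Gpat4. Fasn, the fatty acid synthase gene, had 37894 bp in PHx liver and 26204 bp in sham liver. Mlxipl, which encodes the glucose-sensing factor ChREBP, was the exception, with 23764 and 12808 bp in PHx liver over 26122 bp in sham liver and 75.2% covered. The 3 fatty acid oxidation genes with a domain, of 14 with a listed start, had a median ratio of 1.13. Outside the domains this list held large differences too, such as Acadvl with 43879 bp in PHx liver and 4381 bp in sham liver. Acsl1, which activates fatty acids, had 52070 bp in PHx liver and 48218 bp in sham liver. Cpt1a, the gate of mitochondrial uptake, had 46104 bp in PHx liver and 35848 bp in sham liver.

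Of the 8 glucose genes, 7 had a wider main PHx region, a share like the 85.7% of all domains, with a median ratio of 1.48. The exception was Foxo3, whose domain met 2 PHx regions, of which only the main region counts. Receptors gained most, over 4 and 3 sham regions: Insr, the insulin receptor gene, had 80068 bp in PHx liver and 27701 bp in sham liver, and Gcgr, the glucagon receptor gene, 69610 bp in PHx liver and 25756 bp in sham liver. Pik3r1, a regulatory subunit of the kinase downstream of the insulin receptor, had 59492 bp in PHx liver and 29597 bp in sham liver. The enzyme genes gained less, as did Trib1, a pseudokinase gene that met its PHx region 1 to 1 (41066 bp in PHx liver and 25644 bp in sham liver). Pck1, which makes the gluconeogenic enzyme PEPCK, had 40614 bp in PHx liver and 29765 bp in sham liver. Lactate dehydrogenase A (Ldha) had 33617 bp in PHx liver and 27029 bp in sham liver.

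Amino acid and urea genes were wider in 7 of 8, again like the 85.7% of all domains, with a median ratio of 1.43, and 4 were joined with further sham regions. The urea cycle genes Asl and Ass1 had 51764 bp in PHx liver against 30113 bp in sham liver and 49994 bp in PHx liver against 28941 bp in sham liver. Mat1a, which makes S-adenosylmethionine, had 45198 bp in PHx liver and 32160 bp in sham liver. Hgd, of tyrosine breakdown, was nearer level with 32409 bp in PHx liver and 28984 bp in sham liver. Gpt, the alanine aminotransferase gene, had 41275 bp in PHx liver and 28538 bp in sham liver, yet only 67.4% of the sham domain was covered. Aldh4a1, of proline breakdown, was narrower, with 24857 bp in PHx liver and 26957 bp in sham liver. Sds, of serine breakdown, had 29384 bp in PHx liver and 25186 bp in sham liver, and Agxt, of glyoxylate removal, 58124 bp in PHx liver and 25377 bp in sham liver.

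The lists tied to growth and division had shares at or somewhat above the 4.96% of all listed coding genes. Ccnd1, the cyclin D1 gene, was the member of the cell cycle list and was narrower, with 34313 bp in PHx liver and 36761 bp in sham liver and 84.8% covered. Egfr, the EGF receptor gene, had 51626 bp in PHx liver and 28905 bp in sham liver, a ratio of 1.79 with no further sham region joined. Smad3, which carries TGF-beta signals, had 76573 bp in PHx liver, over 3 sham regions, and 30282 bp in sham liver. The immediate early gene Nr4a1 had 66336 bp in PHx liver and 32126 bp in sham liver, and Zfp36l1, an mRNA decay factor, 43149 bp in PHx liver and 31889 bp in sham liver. Both of these PHx regions ran over 2 sham regions. Itih3, an acute phase gene, had 98169 bp in PHx liver and 26228 bp in sham liver, but over 5 sham regions. Ephx1, the epoxide hydrolase gene, had 41847 bp in PHx liver and 25697 bp in sham liver, and the long noncoding RNA gene Malat1 31412 bp in PHx liver and 27893 bp in sham liver. Egfl7, in the domain it shares with Agpat2, was the endothelial marker among the domains, 1 of 12 with a listed start. Of these 12 markers, 11 had a PHx region at their start and 2 a sham region, so 9 had one in the PHx list alone, among them Pecam1 (21591 bp), Erg (31257 bp) and Lyve1 (38368 bp). The endothelial marker Stab1 had no listed start and went the other way. Gm52148, which overlaps it, had a broad domain with 20873 bp in PHx liver and 33124 bp in sham liver. The part of endothelial and macrophage acetylation in the wider PHx regions was not tested.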

How the data were processed

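H3K27ac CUT&Tag libraries of mouse liver, 2 after PHx and 2 after sham surgery, were used as merged into 1 annotated list of regions per group. Bowtie2, SEACR, ChIPseeker, DiffBind and the builds GRCm39 and mm39 are named, per the submitters' processing notes, with no versions or roles, and no thresholds are stated there. The authors' deposited columns, per the file headers, hold start, end and width in bp, a class, an assigned gene and the library peaks joined in each region. Every region joins peaks of both libraries, so peaks of 1 library alone are not listed. The depth is unknown.

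Domains were sham regions of at least 25000 bp. Overlap meant at least 1 shared bp, and the overlap code was checked on simulated intervals against a count per base. Shares have exact Clopper-Pearson 95% intervals. A gene was inside when a start listed for it in either list lay in the domain; starts came from 10925 gene names, of which 262 found no RefSeq match (table of GRCm38.p6, used for names, biotypes and gene order). Promoter and microRNA sequences are RefSeq's, GRCm38.p6. Beyond the peaks joined in each region, no value exists per library, so nothing was tested, and whether the 2 libraries of a group came from separate animals is not stated.

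The members and gene lists were chosen with earlier results of these data known. Genes were named by a rule: the 10 widest domains, the 5 largest and 5 smallest width ratios, the 5 least covered and any without overlap, the 5 met by most PHx regions, the 5 with most coding starts, 3 on either side of the width minimum, and up to 6 members per gene list, widest first. Further genes, such as the hosts of noncoding genes, the 8 mapped loci and list members without a domain, were chosen after their values were seen. Sequences of the regions themselves were not analysed here. Values of some genes that the rule names are not reported here.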

Additional observations from a re-analysis of the deposited data

How the results depend on the processing

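No result reversed under the alternatives run. The share of the domains' length covered by PHx regions moved little, between 96.0% and 97.2%. With a width minimum of 20000 bp there were 988 domains with 597 coding genes inside and a median width ratio of 1.45. A minimum of 30000 bp gave 330 domains, 219 coding genes and 100% overlapped, and 40000 bp gave 119 domains, 85 coding genes, 100% overlapped, a ratio of 1.18 and 10.9% met by several PHx regions. Domains of 1 peak in each library numbered 108, with 66 coding genes, a ratio of 1.56 and 2.78% met by several PHx regions. The share overlapped was 98.9% when a PHx region had to cover 50% of the domain and 74.5% with a reciprocal overlap of 50%. The share covered was 99.8% at a coverage of at least 50% and 72.5% at 99%. Pairs matched 1 to 1 had a median ratio of 1.08, which follows from leaving out joined regions; the cause of the other changes was not tested. Leaving out a replicate could give no value, since the lists hold no region limits or widths per library. No paired analysis was possible because the lists are merged over the libraries of a group, so the shared replicate numbers 1 and 2 carry no width or overlap.

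What limits all results is that width is the outer extent of merged peaks. A list whose peaks were called broader has wider regions with no other change, and PHx regions were wider over the whole list, with a median ratio of 1.96. Without signal, the level of acetylation in a domain was not measured.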

Other observations

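Several broad domains lay at factor genes outside the gene lists, named here after their values were seen. Rreb1, a zinc finger factor gene, had 99464 bp in PHx liver and 47032 bp in sham liver, over 4 sham regions. Klf2, known for its flow-dependent expression in endothelium, had 66839 bp in PHx liver and 33088 bp in sham liver. Among interferon regulatory factors, Irf1 had 61232 bp in PHx liver, over 3 sham regions, and 29259 bp in sham liver. Irf5 had 42755 bp in PHx liver and 27090 bp in sham liver. Bcl6, a repressor gene, had 47169 bp in PHx liver and 25928 bp in sham liver with no further sham region joined. Foxk1 and Arid5b were nearly level, with 54058 bp in PHx liver against 51903 bp in sham liver and 41416 bp in PHx liver against 37827 bp in sham liver. Zbtb7a, another repressor gene, was narrower, with 32752 bp in PHx liver and 36245 bp in sham liver and 89.1% covered.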
